A study of Homo sapiens with 6 samples.

Results

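Fatty acid desaturases put double bonds into acyl chains and elongases lengthen them, and 10 genes of these families were followed here: SCD, SCD5, FADS1, FADS2, FADS3, ELOVL1, ELOVL4, ELOVL5, ELOVL6 and ELOVL7. They were read by 27 of the 54613 probe sets tested, namely every probe set that the platform annotation gives to one of them plus 223839_s_at, which reads SCD but has no gene in that annotation. The genes were chosen with the difference between the groups known, above all that of SCD, so their values and calls are a description and no test of the family. RNA levels came from 6 Affymetrix HG-U133 Plus 2.0 arrays of the 1833 subline of MDA-MB-231, a human breast cancer line whose subline is known for growing in bone. The 3 control arrays carry the vector according to the series, and the other 3 are labelled S153E-RKIP, from cells that received this form of RKIP by lentivirus and were kept in puromycin. Whether the controls were also kept in puromycin is not stated. RKIP, the product of PEBP1, restrains Raf-1, and S153E-RKIP is described by the series as a more potent form. All cells grew in medium with fetal bovine serum. The titles speak of biological replicates, but how separate the cultures were is not stated. Intervals and calls therefore cover the spread among these 6 samples only, and that spread may be technical.

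Values are log2 RMA signals of single probe sets, and a difference is the S153E-RKIP mean less the control mean. Array medians ran from 5.60 to 5.62 in control and from 5.63 to 5.67 in S153E-RKIP, so each S153E-RKIP median lay slightly above each control median. One label of the S153E-RKIP arrays names an HMGA2 shRNA instead, against their titles. Neither PEBP1 (difference -0.093, SE 0.058) nor HMGA2 (-0.023, SE 0.058) was called, so the groups are named by their labels alone. S153E-RKIP replicate 1 stood apart from the other arrays of its group on the second principal component of all genes (21.6% of the variance), and results are given without it where it matters. VIM (14.47 ± 0.016 in control, SD, n = 3) and KRT18 (13.06 ± 0.031, SD, n = 3), which mark this mesenchymal-like line and its epithelial origin, were bright in both groups. None of the 8 adipocyte, 7 blood cell and 8 fibroblast or endothelial marker genes measured was called by limma, with 0, 1 and 1 at an unadjusted p under 0.05. Over all 19775 genes tested, 3098 had an unadjusted p under 0.05. The mean level over a list ran from 5.17 to 5.23 in control and from 5.20 to 5.24 in S153E-RKIP for adipocyte markers, from 5.16 to 5.21 and from 5.29 to 5.37 for blood cells, and from 5.24 to 5.29 and from 5.32 to 5.39 for fibroblasts and endothelium. The largest absolute differences in these lists were those of PLIN4 (0.16), CD3E (0.29) and COL1A1 (0.21). The last 2 lists were thus slightly higher on each S153E-RKIP array than on any control array, and their part in the results was not tested. No adipocyte or blood marker stood above the median gene, and 2 of the fibroblast and endothelial markers did. No call was made among 11 genes listed for the identity of breast cancer lines, of which 4 passed an unadjusted p of 0.05. FN1 differed most (-0.35, SE 0.13). Of the 11, 9 stood above the median gene (6.64), among them KRT8 (9.99 in control), EPCAM (8.30), GATA3 (8.16) and ERBB2 (7.72), with ESR1 near the median. Whether a gene above the median is expressed was not tested. CDH1 (4.14) and PGR (4.02) lay below it.

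SCD and SCD5 put the first double bond into saturated acyl chains, which turns stearate into oleate and palmitate into palmitoleate. FADS1 and FADS2 act on polyunsaturated chains from the diet, as delta-5 and delta-6 desaturase, and together with ELOVL5 build arachidonate and related lipids. ELOVL6 lengthens palmitate to stearate, ELOVL1 and ELOVL4 make very long chains, and several of these genes are known targets of SREBP-1 and of liver X receptors.

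On the arrays labelled S153E-RKIP, SCD, FADS1, 1 probe set of FADS2 and 1 of SCD5 were called lower, and no elongase probe set was called. Of the 27 probe sets, 10 were called lower and 0 higher (limma, adjusted p under 0.05 over all probe sets), while 0.685% of all probe sets were called lower and 0.366% higher. Nothing is read from that contrast, since the genes were chosen on it. At an unadjusted p under 0.05, 12 of the 27 were lower and 0 higher, against 3761 and 3464 of all 54613 probe sets. The 10 were all 5 probe sets of SCD, all 3 of FADS1, 1 of 2 of FADS2 and 1 of 4 of SCD5. None of the 2 of FADS3 and none of the 11 elongase probe sets was called. Differences lay below 0 in 24 of 27, and in 25333 of all 54613. Their median was -0.17 in the 27, against 0.010 over all probe sets, and in the 22 without SCD the median was -0.13. The groups did not overlap in 13 of the 27, each time with S153E-RKIP lower, a pattern found in 9.06% of all probe sets. The extremes were -2.92 for an SCD probe set, which was also the lowest difference of all 54613, and 0.12 for ELOVL4.

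**Figure D1:**
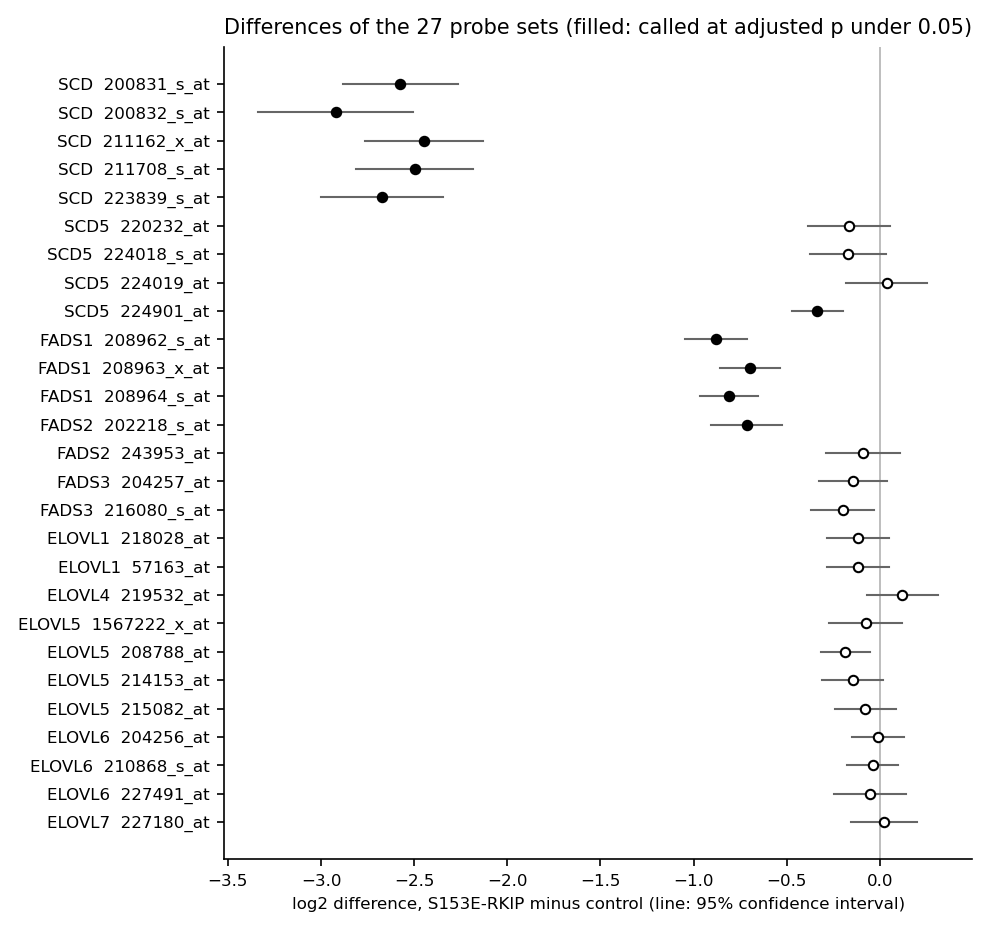
Log2 difference, S153E-RKIP minus control, of each of the 27 probe sets of the 10 genes, with its 95% confidence interval from limma's moderated variance; filled points were called at an adjusted p under 0.05. The 5 SCD probe sets lie between -2.92 and -2.45, those of FADS1 between -0.88 and -0.70, and the 11 elongase probe sets between -0.19 and 0.12.

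The DNA before the starts of the 4 genes with a called probe set is shown so that the shared lower signal can be set beside the sequence. Each line holds the 250 bases before a RefSeq gene start (GRCh38.p14), 5′ to 3′ in the direction of the gene. Capitals mark CCAAT or its reverse complement ATTGG, the box that NF-Y binds and that often stands near SREBP sites, and CACCCC or its reverse complement GGGGTG, letters found within the classical sterol element. FADS2 has a pair of annotated starts, of which the upstream one is shown.
SCD (chr10:100346983-100347232, plus strand): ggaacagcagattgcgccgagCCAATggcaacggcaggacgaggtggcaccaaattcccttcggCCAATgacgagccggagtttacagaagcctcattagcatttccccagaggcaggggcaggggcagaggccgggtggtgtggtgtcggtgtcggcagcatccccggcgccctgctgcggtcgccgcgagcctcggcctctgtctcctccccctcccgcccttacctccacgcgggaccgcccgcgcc
SCD5 (chr4:82798797-82799046, minus strand): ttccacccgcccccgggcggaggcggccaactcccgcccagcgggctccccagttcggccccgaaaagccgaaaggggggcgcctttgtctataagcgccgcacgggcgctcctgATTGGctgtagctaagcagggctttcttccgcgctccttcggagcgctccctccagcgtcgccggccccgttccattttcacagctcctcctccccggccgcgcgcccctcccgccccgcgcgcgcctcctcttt
FADS1 (chr11:61817004-61817253, minus strand): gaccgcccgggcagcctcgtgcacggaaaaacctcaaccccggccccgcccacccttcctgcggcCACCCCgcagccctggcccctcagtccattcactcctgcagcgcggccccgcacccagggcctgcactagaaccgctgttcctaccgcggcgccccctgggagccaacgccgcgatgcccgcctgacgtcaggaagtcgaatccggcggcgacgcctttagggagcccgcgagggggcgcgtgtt
FADS2 (chr11:61815953-61816202, plus strand): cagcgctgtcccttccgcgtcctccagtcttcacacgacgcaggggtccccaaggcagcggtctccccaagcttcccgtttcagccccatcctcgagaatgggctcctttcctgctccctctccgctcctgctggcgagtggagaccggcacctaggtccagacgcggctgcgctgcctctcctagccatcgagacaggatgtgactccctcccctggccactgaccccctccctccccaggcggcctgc
The SCD window holds 2 CCAAT boxes, which begin 229 and 186 bases before the start. That of SCD5 holds 1, on the other strand, and those of FADS1 and FADS2 hold none. CACCCC was found once in FADS1 and in none of the other 3. Neither string thus stood in the windows of all 4 genes. Other forms of a sterol element were not searched for. Over the 11 windows of all 10 genes, CCAAT on either strand stood in 6 and CACCCC in 2, against 32.0% and 26.4% of 35116 RefSeq windows of the same length. ELOVL5 and ELOVL4, with no called probe set, hold 2 CCAAT boxes each, as does FADS3. GGGCGG, a GC box on either strand that can be read by SP1, stood in 9 of the 11 windows and in 42.6% of all. Hits of different motifs shared bases only in ELOVL1, where a CCAAT box and a GC box share 2. A match is a description of the letters and not a binding site.

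SCD, the main delta-9 desaturase of most tissues, fell on all 5 probe sets, with differences from -2.92 to -2.45. On 200832_s_at the control arrays read 11.32, 11.56 and 11.23, and the S153E-RKIP arrays 7.99, 8.76 and 8.60. On 200831_s_at they read 10.83, 11.16 and 10.78 against 8.08, 8.49 and 8.48. The lowest control array stood above the highest S153E-RKIP array by 2.47 and 2.29 on these probe sets, far more than the spread within either group. On 211708_s_at control read 9.83, 10.37 and 10.14, and S153E-RKIP 7.43, 7.76 and 7.65. On 211162_x_at the values were 9.10, 9.60 and 9.45, and then 6.73, 7.13 and 6.95. These are the 2 SCD probe sets with the widest control groups (SD 0.27 and 0.26), and the gap between the groups was 2.07 and 1.97. The unannotated 223839_s_at read 8.16, 8.36 and 8.29 in control and 5.23, 5.82 and 5.74 in S153E-RKIP. It moved like the annotated SCD probe sets.

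The fitted differences of SCD were -2.92 (SE 0.18), -2.57 (SE 0.13), -2.50 (SE 0.14), -2.45 (SE 0.14) and, for 223839_s_at, -2.68 (SE 0.14), in the order given. Their 95% confidence intervals reached from -3.34 at the lowest to -2.13 at the highest and overlapped one another. On a linear scale the S153E-RKIP signal was 13.2% to 18.3% of control. The treated values of 223839_s_at lay near the median of all probe sets (5.62), and how far they stood above background was not measured. Within the groups the SCD probe sets moved together: control replicate 2 was the highest control array on all 5, and S153E-RKIP replicate 1 was the lowest array on all 5. Without S153E-RKIP replicate 1 the difference of 200832_s_at was -2.69 and that of 200831_s_at was -2.44.

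SCD5, the other human delta-9 desaturase, known mainly from brain and pancreas, differed far less. Its brightest probe set, 224901_at, read 8.05, 8.14 and 8.07 in control and 7.72, 7.76 and 7.78 in S153E-RKIP. The groups stood 0.28 apart, and the difference was -0.33 (SE 0.060), which leaves 79.3% of the control signal. This call rested on all 6 arrays. Its adjusted p was 0.0419, and it was 0.142, 0.199 and 0.165 without control replicate 1, 2 or 3 and 0.0998, 0.129 and 0.0934 without S153E-RKIP replicate 1, 2 or 3. After quantile normalisation again it was 0.0827, and with the replicate number as a block 0.0815. The other 3 probe sets of SCD5 were not called, and their groups overlapped. Their differences were -0.17 for 220232_at, -0.17 for 224018_s_at and 0.038 for 224019_at, the last being -0.057 without S153E-RKIP replicate 2. With the mean of all 4 probe sets the difference of SCD5 was -0.16.

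**Figure D2:**
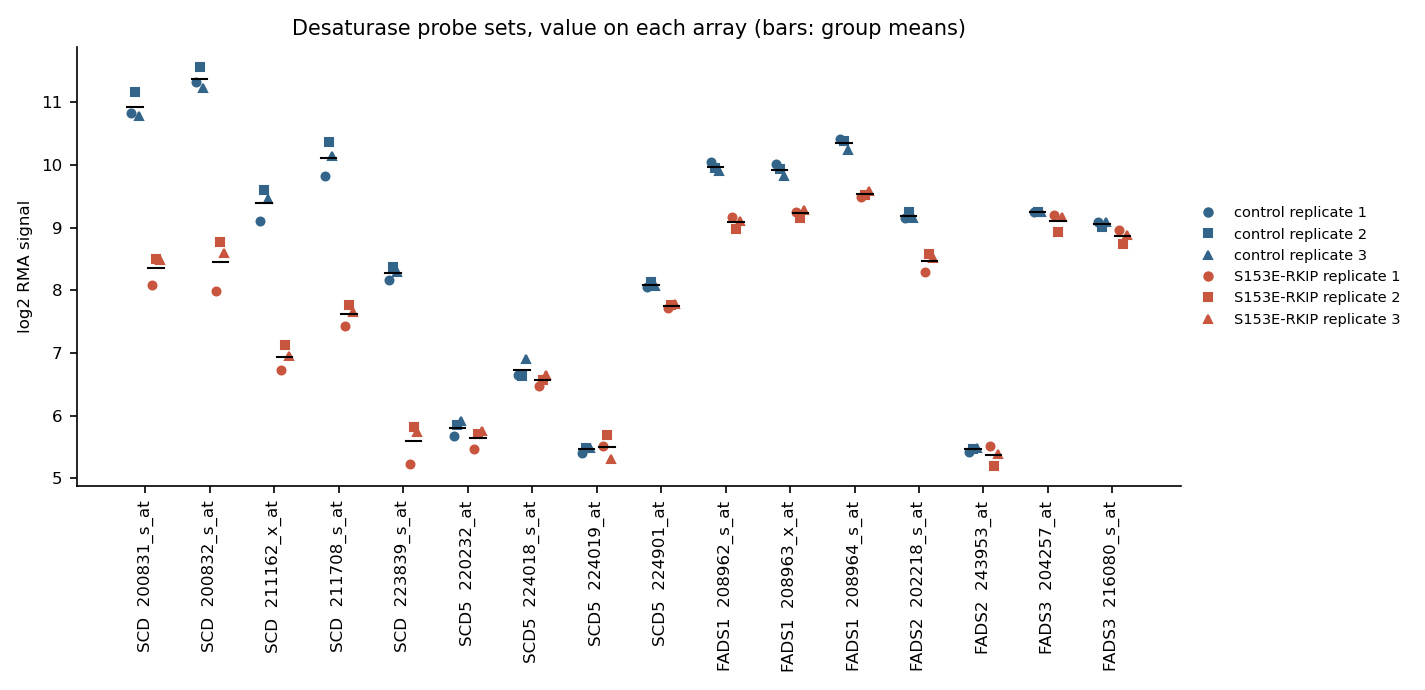
Log2 RMA signal of the 16 desaturase probe sets on each array, control in blue and S153E-RKIP in red, with a marker shape per replicate and a bar at each group mean. On all 5 SCD probe sets the lowest control array stands at least 1.97 above the highest S153E-RKIP array; levels of different probe sets cannot be set against each other.

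FADS1, the delta-5 desaturase that makes arachidonate and eicosapentaenoate, was lower on each of its 3 probe sets. They are annotated to FADS1 and also to MIR1908, a microRNA gene that lies inside FADS1, so none of them has FADS1 as its only symbol. On 208964_s_at control read 10.41, 10.38 and 10.24, and S153E-RKIP 9.49, 9.53 and 9.58. On 208962_s_at control read 10.04, 9.94 and 9.91, and S153E-RKIP 9.17, 8.98 and 9.10. On 208963_x_at control read 10.01, 9.94 and 9.83, and S153E-RKIP 9.25, 9.16 and 9.28. The groups did not overlap on any of them, and the gap ran from 0.55 to 0.74. The differences were -0.81 (SE 0.069), -0.88 (SE 0.073) and -0.70 (SE 0.071), or 54.3% to 61.7% of the control signal. All 3 stayed called without any 1 array, with differences between -0.92 and -0.65. Control replicate 1 was the highest array on all 3, and among the S153E-RKIP arrays replicate 2 was lowest on 2 probe sets and replicate 1 on the other, so the order of arrays was not that of SCD.

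FADS2, the delta-6 desaturase that opens the same pathway, was lower on its brighter probe set. On 202218_s_at control read 9.15, 9.24 and 9.15, and S153E-RKIP 8.29, 8.57 and 8.52. The difference was -0.72 (SE 0.084), or 60.9% of the control signal, with a gap of 0.57 between the groups. As for SCD, control replicate 2 was the highest array and S153E-RKIP replicate 1 the lowest. Without the latter the difference was -0.63, still called. The dim probe set 243953_at had a difference of -0.090 (SE 0.086), lay below the median of all probe sets and was not called.

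FADS3, the third gene of the cluster, a desaturase known to act on sphingoid bases, was not called. On 204257_at control read 9.25, 9.24 and 9.24, and S153E-RKIP 9.20, 8.93 and 9.16. On 216080_s_at control read 9.08, 9.00 and 9.09, and S153E-RKIP 8.97, 8.73 and 8.88. The groups just failed to overlap on both, by 0.039 and 0.038. The differences were -0.14 (SE 0.080, 95% confidence interval -0.33 to 0.037) and -0.20 (SE 0.075, -0.37 to -0.029). These intervals do not reach those of FADS1 or of the brighter FADS2 probe set. S153E-RKIP replicate 2 was the lowest array on both, and without it the differences were -0.061 and -0.14.

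The FADS genes lie side by side on chromosome 11 in the RefSeq table (GRCh38.p14), in the order MYRF, TMEM258, FEN1, FADS1, FADS2, FADS3, RAB3IL1 and BEST1. FTH1, a further neighbour, was not in the fit over genes. Over all 19775 genes, 10609 differences lay above 0. None of the 5 measured neighbours was called or had an unadjusted p under 0.05, and all 5 differences lay above 0. They were 0.058 (SE 0.091) for MYRF, 0.036 (SE 0.059) for TMEM258, 0.047 (SE 0.056) for FEN1, which encodes a flap endonuclease of DNA replication, 0.13 (SE 0.063) for RAB3IL1 and 0.12 (SE 0.087) for BEST1. The lower signal was thus called in FADS1 and FADS2 and not in the measured genes on either side. The spans of FADS1 and FADS2 overlap in that table, and where the probes lie was not examined.

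**Figure D3:**
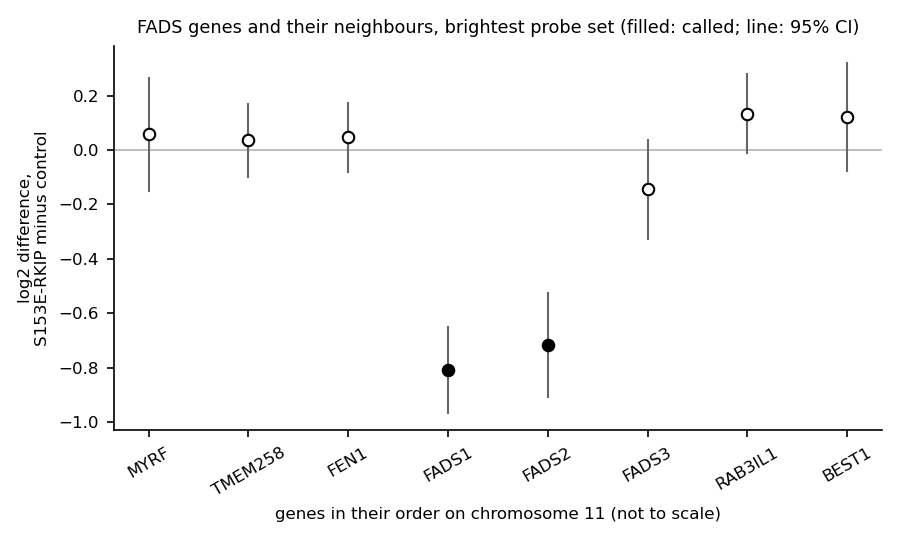
Log2 difference, S153E-RKIP minus control, with its 95% confidence interval for the FADS genes and their neighbours in chromosome order, each read by its brightest probe set; filled points were called. FADS1 (-0.81) and FADS2 (-0.72) lie below the rest; neighbours come from the fit over genes and the FADS genes from the fit over probe sets.

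None of the 11 elongase probe sets was called by limma, and 1 had an unadjusted p under 0.05. ELOVL5, which lengthens polyunsaturated chains between the FADS2 and FADS1 steps, held that one. Its brightest probe set, 208788_at, read 11.96, 11.92 and 11.94 in control and 11.72, 11.76 and 11.78 in S153E-RKIP. The groups did not overlap, with a gap of 0.14, and the difference was -0.19 (SE 0.058). It was called with a variance trend and robust estimation (adjusted p = 0.0300) and in no other setting. The 3 dimmer probe sets of ELOVL5 had differences of -0.15, -0.078 and -0.076, and their groups overlapped.

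ELOVL6, the enzyme that supplies stearate to SCD, was close to control. On 204256_at control read 9.95, 9.90 and 9.85, and S153E-RKIP 9.90, 9.92 and 9.84. It differed by -0.0094 (SE 0.061, 95% confidence interval -0.15 to 0.13), and the sign turned after quantile normalisation again (0.033). The other probe sets of ELOVL6 had differences of -0.039 and -0.051. The upper and lower limits of these 3 intervals lay between -0.24 and 0.14, so a change of the size seen in SCD, FADS1 or FADS2 lay outside them.

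ELOVL1, which elongates saturated very long chains, was read by 2 probe sets that are annotated to MIR6734 as well. On 57163_at control read 10.33, 10.29 and 10.36, and S153E-RKIP 10.34, 10.12 and 10.16. The groups overlapped, since S153E-RKIP replicate 1 lay among the controls. The differences were -0.12 (SE 0.073) on this probe set and -0.12 (SE 0.073) on 218028_at. ELOVL7 read 6.69, 6.79 and 6.52 in control and 6.69, 6.67 and 6.71 in S153E-RKIP, with overlapping groups and a difference of 0.025 (SE 0.078) that was -0.012 with equal array medians. ELOVL4, an elongase of retina, skin and brain, read 3.79, 3.71 and 3.84 in control and 3.86, 4.06 and 3.78 in S153E-RKIP. Those values lay below the median of all probe sets (5.62), and the difference was 0.12 (SE 0.084).

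**Figure D4:**
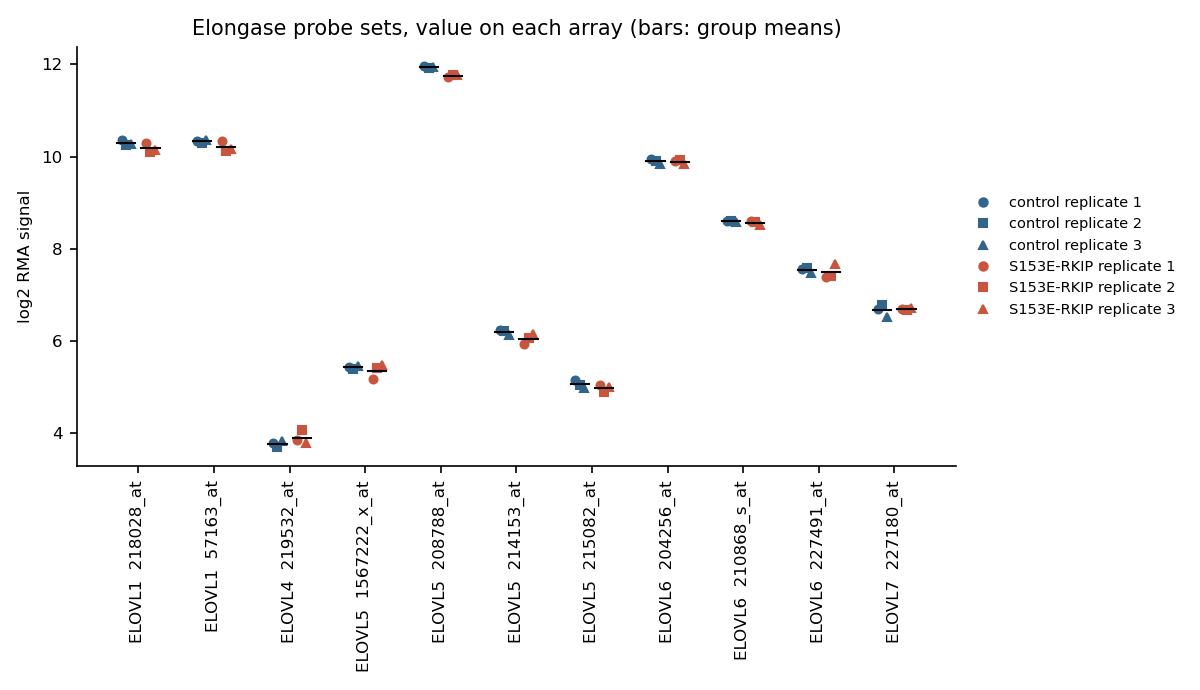
Log2 RMA signal of the 11 elongase probe sets on each array, control in blue and S153E-RKIP in red, with a marker shape per replicate and a bar at each group mean. The groups overlap on all but 208788_at of ELOVL5, where they stand 0.14 apart.

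Read by 1 probe set per gene, the brightest one with a single symbol, 8 of the 10 genes could be tested among 19775 genes, since FADS1 and ELOVL1 have none. SCD, SCD5 and FADS2 were called lower, where 1.21% of all genes were called lower and 0.688% higher. The same fit gave the other genes of the pathway, from lists written with earlier results of these data known. Over all genes the median difference was 0.010.

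Of 15 measured partner enzymes of elongation and desaturation, 1 was called higher and 0 lower, with a median of 0.0090. Of the 15, 4 had an unadjusted p under 0.05, as did 3098 of all 19775 genes. The one called higher was CYB5R2, a reductase of cytochrome b5, the electron carrier of desaturases. It read 7.02, 6.96 and 6.88 in control and 7.24, 7.28 and 7.32 in S153E-RKIP. Its difference was 0.33 (SE 0.060, adjusted p = 0.0349), with an adjusted p of 0.159 without control replicate 3 and between 0.0604 and 0.142 without any other array. It was 0.0576 with equal array medians and 0.0797 with the replicate number as a block, so these settings ended the call too. The enzymes that complete each elongation cycle had small differences, such as -0.13 (SE 0.054) for HSD17B12, the ketoreductase, and -0.16 (SE 0.056) for TECR, the last reductase of the cycle. Neither of these was called. HSD17B12 and TECR were named after their values were seen.

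Of 11 fatty acid activation genes, ACSL4 was called lower and none higher, with a median of -9e-04. Differences lay below 0 in 6 of them and above 0 in 5. SLC27A1 (-0.52, SE 0.16) and ACSL5 (0.26, SE 0.061), named after their values were seen, were not called. ACSL4, an acyl-CoA synthetase that prefers arachidonate, read 9.57, 9.35 and 9.48 in control and 9.10, 9.14 and 9.08 in S153E-RKIP. Its difference was -0.36 (SE 0.068, adjusted p = 0.0388), and its call was lost without any 1 array (adjusted p between 0.0510 without control replicate 2 and 0.166 without control replicate 3), after quantile normalisation again (0.0785) and with the replicate number as a block (0.0701). Of 13 genes that place acyl chains into lipids, LPCAT3 was called lower and none higher, with a median of -0.026. Differences lay below 0 in 8 of them and above 0 in 5. DGAT2 (0.46, SE 0.10) and LPCAT1 (0.39, SE 0.11), named after their values were seen, were higher but not called. LPCAT3, which puts polyunsaturated chains into phospholipids, read 7.52, 7.56 and 7.52 in control and 7.14, 7.23 and 7.03 in S153E-RKIP. Its difference was -0.40 (SE 0.066, adjusted p = 0.0234). The groups of ACSL4 and LPCAT3 did not overlap, a pattern found with S153E-RKIP lower in 9.06% of all probe sets. Nothing is read from it, since both genes were named for their calls. The call of LPCAT3 was lost without any 1 array other than S153E-RKIP replicate 2, with an adjusted p of up to 0.124, and after quantile normalisation again (0.0523), and averaged over its probe sets LPCAT3 differed by -0.13 (adjusted p = 0.307).

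Of 13 transcription factor genes known to act on desaturase genes, 3 were called lower and none higher, with a median of -0.11. SREBF1, whose product switches on genes of fatty acid synthesis and SCD, read 7.96, 7.84 and 7.78 in control and 7.01, 7.36 and 7.40 in S153E-RKIP. Its difference was -0.60 (SE 0.11, adjusted p = 0.0286). As for SCD, S153E-RKIP replicate 1 was the lowest array of SREBF1, and without it the difference was -0.48 (adjusted p = 0.0287). Its call was lost without any other array (adjusted p between 0.0569 and 0.159) and with the replicate number as a block (adjusted p = 0.0572), and averaged over its probe sets it differed by -0.30 (adjusted p = 0.0630). PPARG, a nuclear receptor of fat cells that binds fatty acids, read 9.16, 9.17 and 9.16 in control and 8.65, 8.49 and 8.74 in S153E-RKIP. Its difference was -0.53 (SE 0.073, adjusted p = 0.00943), and its adjusted p was 0.0729, 0.0559 and 0.0613 without control replicate 1, 2 or 3. SREBF2, whose product drives cholesterol synthesis, read 8.40, 8.25 and 8.13 in control and 7.68, 7.55 and 7.57 in S153E-RKIP. It fell by 0.66 (SE 0.080, adjusted p = 0.00503) and kept its call without any 1 array. The groups of all 3 genes did not overlap, as in 9.06% of all probe sets with S153E-RKIP lower, and nothing is read from that in genes named for their calls. Of 7 liver X receptor target genes, SREBF1 and LPCAT3, both counted above, were called lower and the other 5 were not called. The median was -0.20. ABCA1, a cholesterol exporter and a classical target, had a difference of -0.20 (SE 0.40), with overlapping groups, and was itself the median of this list. It read 6.17, 6.81 and 6.33 in control and 5.16, 6.87 and 6.69 in S153E-RKIP. Only S153E-RKIP replicate 1 lay below the controls, and the other S153E-RKIP arrays lay above the control mean (6.44). ABCA1 was named after its value was seen.

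The 5 genes most like SCD were found by the root mean square distance, over the 6 arrays, between values taken relative to the control mean of each gene. They were INSIG1 at a distance of 0.34, TMEM154 at 0.88, TENM1 at 0.96, MSMO1 at 1.03 and STARD4 at 1.07. This distance mostly follows the size of the fall on the S153E-RKIP arrays, for which SCD was chosen. It is a description and no test of a shared control. INSIG1, which retains the sterol sensor in the endoplasmic reticulum, stood nearest. Relative to their control means, the S153E-RKIP arrays read -3.38, -2.61 and -2.77 for SCD and -2.59, -2.77 and -2.65 for INSIG1. The 2 genes differed in the array that was lowest, replicate 1 for SCD and replicate 2 for INSIG1. The differences of the other 4 were smaller and ran from -1.73 for TMEM154 to -1.43 for STARD4.

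**Figure D5:**
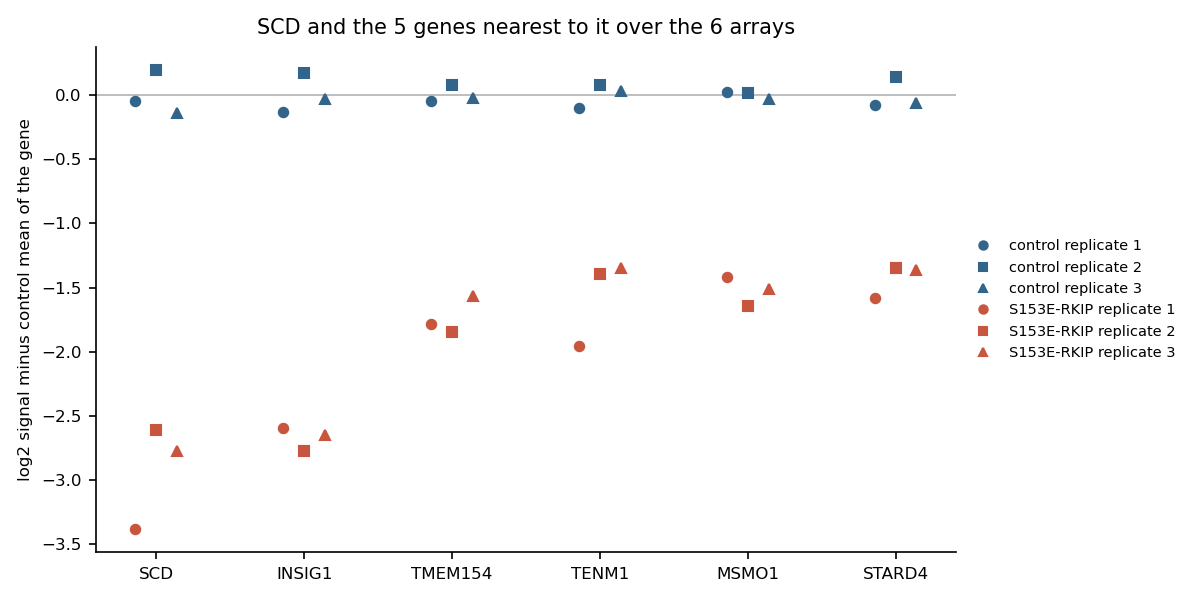
Log2 signal of SCD and of the 5 genes nearest to it on each array, relative to the control mean of each gene, control in blue and S153E-RKIP in red with a marker shape per replicate. SCD and INSIG1 lie below -2.5 on all 3 S153E-RKIP arrays, and the other 4 genes lie between -1.96 and -1.35.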

How the data were processed

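RNA of 3 control and 3 S153E-RKIP samples of the 1833 line was hybridised to arrays. The deposited values are log2 signals made by the authors with RMA, per the submitters' processing notes. No version is given. RMA includes background correction, quantile normalisation and a summary over each set's probes, and forces similar distributions on the arrays. The values were used as deposited, without 62 control probe sets, which left 54613. Depth has no counterpart on arrays, and their number limits the precision.

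Groups came from the sample titles. Each probe set was fitted in limma 3.58.1 (R 4.3.3; lmFit, eBayes, two-sided), with Benjamini-Hochberg adjustment over all probe sets. A second fit took 1 probe set for each of 19775 genes, the brightest with a single symbol. In the annotation, 41091 probe sets have 1 symbol, 1801 several and 11721 none. Standard errors and 95% confidence intervals use the moderated variance. The fits were tested on simulated data. All 10 genes were found among RefSeq promoter windows.

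Members and lists were chosen with earlier results of these data known. Per-array values are given for each called probe set and otherwise for at least the brightest of a gene. For each list up to 4 called genes are named, or the gene that differed most. Alternatives were quantile normalisation again, equal array medians, only features above the median level, a variance trend with robust estimation, a replicate block, each array left out, and averaging over the probe sets of a gene. Figures were drawn with matplotlib 3.10.9.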

Additional observations from a re-analysis of the deposited data

How the results depend on the processing

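The calls of SCD, FADS1 and the brighter FADS2 probe set held in every alternative run of the fit over probe sets, and that of SCD5 did not. Averaging over the probe sets of a gene has no such fit. Of the 27 probe sets, 10 were called. The count was 9 after quantile normalisation again, with the replicate block and without any 1 array, 10 with equal medians or only features above the median level, and 11 with a variance trend and robust estimation. Of the 8 genes read by their brightest probe set with a single symbol, 3 were called. That number was 2 without any 1 array or with the replicate block, and 4 with a variance trend and robust estimation.

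Differences near 0 changed sign. After quantile normalisation again those of ELOVL6 were 0.033 on 204256_at and 0.018 on 210868_s_at, and with equal array medians that of ELOVL7 was -0.012. With 1 array left out, the sign turned for 204256_at of ELOVL6 (range -0.036 to 0.016) and 227491_at (-0.14 to 0.0035), 1567222_x_at of ELOVL5 (-0.14 to 0.017), 224019_at of SCD5 (-0.057 to 0.14) and ELOVL7 (-0.050 to 0.085).

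The counts of called genes in the other lists were small and moved between settings, in some lists down to 0. For partner enzymes, 1 was called, 0 with equal array medians or the replicate block, and 0 to 0 without 1 array. For activation, 1 was called, 0 after quantile normalisation again or with the block, 2 with only genes above the median, with the variance trend or with the mean of probe sets, and 0 to 0 without 1 array. For acyl placing, 1 was called, 2 with only genes above the median or with the trend, 0 with the mean of probe sets, and 0 to 1 without 1 array. For transcription factors 3 were called, 2 with the block or with the mean of probe sets, and 1 to 3 without 1 array. For liver X receptor targets 2 were called, 1 after quantile normalisation again or with the block, 0 with the mean of probe sets, and 0 to 1 without 1 array. Of all genes 376 were called, and 124 to 303 without 1 array. Some of these settings used fewer arrays or tested fewer genes, and others did not. The cause of these moves was not tested.

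Pairing by the replicate numbers in the titles was not evident, but 3 arrays per group cannot exclude it. The deviations of same-numbered arrays from their group means had correlations of 0.086, 0.19 and -0.022. Of the 3 numbers, only number 2 correlated best with its own in both directions. With the number as a block, SCD5 had an adjusted p of 0.0815, and 573 of all probe sets were called against 574.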
